A study of Mus musculus with 4 samples.

Results

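The AP-2 family comprises 5 genes in the mouse, Tfap2a, Tfap2b, Tfap2c, Tfap2d and Tfap2e. They were found by matching the Ensembl gene IDs of the count table to these symbols in the GENCODE annotation of GRCm38, and all 5 members had a row among the 55487 gene IDs. The libraries are poly(A) RNA of the mouse skull vault (calvaria) at day E14.5. The frontal bone gave 2 libraries, and 2 more hold parietal and interparietal bone combined. Strain, sex, litter and the number of pooled embryos are not in the labels, which also name no genetic change and no treatment. Separate embryos are not stated for the 2 libraries of a region, so a p-value reflects the spread between these libraries alone, which may be technical. All differences below are frontal minus parietal-interparietal.

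AP-2 proteins are transcription factors that bind GC-rich DNA as dimers, through a basic region joined to a helix-span-helix domain. Tfap2a and Tfap2b act in the cranial neural crest, the cell population that gives rise to the bones of the face and most of the frontal bone, and loss of Tfap2a in mice disrupts closure of the head and growth of the face. Tfap2c is best known from trophoblast, germ cells and surface ectoderm and is also used by progenitors of the cerebral cortex. Tfap2d is a factor of the dorsal midbrain and retina, and Tfap2e one of the olfactory bulb and vomeronasal neurons. The parietal bone arises mainly from head mesoderm. The libraries compared with frontal bone also hold interparietal bone, so the comparison cannot be read as one of crest against mesoderm alone.

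The members are close relatives, and the most alike stretch of their coding sequences is shown because the counts depend on telling their reads apart. It is the 60-base window with the most positions shared by all 5 members in an alignment of the GENCODE coding sequences. Capitals mark the 40 positions at which all 5 have the same base.
Tfap2a: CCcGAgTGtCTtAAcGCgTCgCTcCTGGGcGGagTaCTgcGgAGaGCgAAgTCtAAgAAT
Tfap2b: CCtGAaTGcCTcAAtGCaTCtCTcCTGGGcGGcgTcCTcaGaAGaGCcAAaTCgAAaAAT
Tfap2c: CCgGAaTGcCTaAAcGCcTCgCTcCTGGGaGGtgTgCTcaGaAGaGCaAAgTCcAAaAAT
Tfap2d: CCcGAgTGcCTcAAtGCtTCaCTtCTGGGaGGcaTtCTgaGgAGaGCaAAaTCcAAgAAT
Tfap2e: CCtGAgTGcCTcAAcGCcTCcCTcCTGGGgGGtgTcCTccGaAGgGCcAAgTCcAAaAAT

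In each gene the window crosses the junction of exons 4 and 5 of the transcript used. Its ends lie at chr13:40721372-40723134 on the minus strand for Tfap2a, at chr1:19226612-19228457 on the plus strand for Tfap2b and at chr2:172553589-172554056 on the plus strand for Tfap2c. For Tfap2d they lie at chr1:19118952-19119177 on the plus strand and for Tfap2e at chr4:126720589-126721898 on the minus strand (GRCm38). Most of the variable positions are the last base of a codon. Over the whole coding sequence Tfap2a and Tfap2b were the most alike pair, with 69.1% identical bases and a longest shared run of 29 bases. Tfap2c and Tfap2d were the least alike, with 52.2% and a longest run of 11 bases. The longest shared run of the remaining 8 pairs was between 11 and 22 bases. The handling of reads with several matches is not given in the sources used here, and shared runs of this length are short against common read lengths.

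All 5 members passed the filter on low counts and were among 20947 tested genes. Tfap2c was called higher in the frontal libraries and Tfap2a and Tfap2d were called lower, at an adjusted p under 0.05 in edgeR's quasi-likelihood test. Tfap2b and Tfap2e did not pass. These 3 calls of 5 members stand beside 12.7% of all tested genes called, 6.25% higher and 6.44% lower. For all 5 members the frontal libraries lay wholly on one side of the parietal-interparietal libraries, as was the case for 57.3% of tested genes (28.9% with frontal above and 28.4% with frontal below). Because the tissue is bulk, fewer cells of a type and less RNA per cell cannot be told apart in any of these differences.

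**Figure D1:**
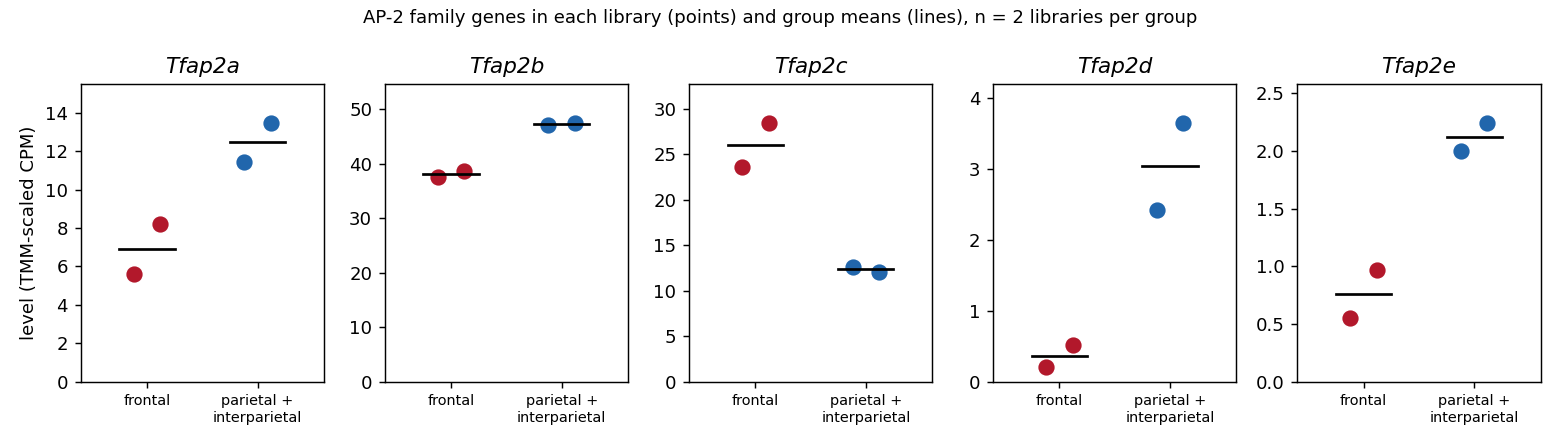
Level of each AP-2 gene (vertical axis, TMM-scaled CPM, from 0, own scale per gene) in the 2 frontal libraries (red, left) and the 2 parietal-interparietal libraries (blue, right), with lines at group means. Tfap2c is the member with higher frontal points, 23.6 and 28.5 CPM against 12.6 and 12.05 CPM in parietal-interparietal libraries, and the frontal points of the other 4 lie lower.

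Tfap2a (ENSMUSG00000021359, chromosome 13, 40715302 to 40738376), the family member most closely tied to neural crest and to closure of the head, had 162 and 290 counts in frontal libraries 1 and 2, against 279 and 366 in parietal-interparietal libraries 1 and 2. Scaled to library size these were 5.63 and 8.24 CPM in frontal libraries, against 11.4 and 13.5 CPM in parietal-interparietal libraries. Both frontal libraries lay below both others, with frontal library 1 the lowest. The group means of Tfap2a were 6.93 ± 1.84 CPM (frontal) and 12.5 ± 1.46 CPM (parietal-interparietal), with SD and n = 2 each, a 1.79-fold lower level (log2 fold change −0.84 ± 0.21 SE, edgeR adjusted p = 0.0245). The call was lost without parietal-interparietal library 2 (−0.72, adjusted p = 0.179) and where the 2 parietal-interparietal libraries were summed (−0.85, adjusted p = 0.0897).

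Annotated antisense genes, 3 in all, share exon bases with Tfap2a, and the strand setting of the counting is not given in the sources used here, so reads of either strand there cannot be assigned with certainty. The largest overlap, with Gm26688, covers 7.75% of the merged exon bases of Tfap2a. Gm26688 had 5 and 23 counts in frontal libraries against 21 and 37 in parietal-interparietal libraries, with adjusted p = 0.25. Gm47061 had 6 and 7 counts in frontal libraries against 9 and 14 in parietal-interparietal libraries, and Gm47067 had 5 and 6 counts in frontal libraries against 0 and 5 in parietal-interparietal libraries.

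Tfap2b (ENSMUSG00000025927, chromosome 1, 19208914 to 19238576), which acts beside Tfap2a in cranial neural crest, had the highest CPM of the family. It had 1078 and 1359 counts in frontal libraries, against 1150 and 1290 in parietal-interparietal libraries. The levels were 37.5 and 38.6 CPM in frontal libraries, against 47.1 and 47.5 CPM in parietal-interparietal libraries. The libraries of a region were close to each other and the regions did not overlap. The difference was −0.31 ± 0.09 log2 units and did not pass the threshold (edgeR adjusted p = 0.0553). Among fits that kept all 4 libraries, it was called with scaling by total count alone (edgeR adjusted p = 0.0331) and with counts halved (0.0459). It was not called by DESeq2 (adjusted p = 0.099), by limma-voom (0.0582) or by edgeR with the replicate number as a block (0.0566). With 1 library left out its log2 fold change lay between −0.34 and −0.29, and it was −0.32 with the parietal-interparietal pair summed.

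Tfap2c (ENSMUSG00000028640, chromosome 2, 172549593 to 172558622), the family's factor of trophoblast, ectoderm and cortical progenitors, had 678 and 1003 counts in frontal libraries, against 309 and 327 in parietal-interparietal libraries. Its mean level was 26.0 ± 3.47 CPM (frontal) and 12.3 ± 0.42 CPM (parietal-interparietal), with SD and n = 2 each. The lower of the frontal libraries, at 23.6 CPM, lay well above both parietal-interparietal libraries. The fold change was 2.11 (log2 1.08 ± 0.14 SE, edgeR adjusted p = 0.000959), and 8.55% of tested genes had a larger absolute log2 fold change. Tfap2c was called higher under all 12 alternatives, with log2 fold changes between 0.92 and 1.21.

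Tfap2d (ENSMUSG00000042596, chromosome 1, 19103022 to 19166346), the dorsal midbrain member, had 6 and 18 counts in frontal libraries, against 59 and 99 in parietal-interparietal libraries. The levels were 0.209 and 0.511 CPM in frontal libraries, against 2.41 and 3.65 CPM in parietal-interparietal libraries. Frontal library 1, with 6 counts, was near the level of 3 counts, which is 0.104 CPM there. Frontal library 2 had 18 counts, or 0.511 CPM, and 3 counts are 0.0852 CPM there. The size of the fold rests on few reads. The 8.17-fold lower level was the largest difference in the family (log2 fold change −3.03 ± 0.52 SE, edgeR adjusted p = 0.00466), and 0.835% of tested genes had a larger absolute log2 fold change. It was called lower under all 12 alternatives, with log2 fold changes between −3.84 and −2.56. Antisense gene Gm15825, which shares 8.75% of the merged exon bases of Tfap2d, had 0 counts in each of the 4 libraries.

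Tfap2e (ENSMUSG00000042477, chromosome 4, 126716006 to 126736240), the olfactory and vomeronasal member, had 16 and 34 counts in frontal libraries, against 49 and 61 in parietal-interparietal libraries. The levels were 0.556 and 0.966 CPM in frontal libraries, against 2.005 and 2.25 CPM in parietal-interparietal libraries. The regions did not overlap, and frontal library 1 was again the lowest. The difference of −1.47 ± 0.46 log2 units did not pass the threshold (edgeR adjusted p = 0.0664). Among fits that kept all 4 libraries, it was called with no filter (edgeR adjusted p = 0.0227) and with the replicate number as a block (0.0387). It was not called by DESeq2 (adjusted p = 0.108), by limma-voom (0.0664) or by edgeR with total count scaling (0.0627). With 1 library left out its log2 fold change lay between −1.94 and −1.14, and it was −1.48 with the parietal-interparietal pair summed.

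**Figure D2:**
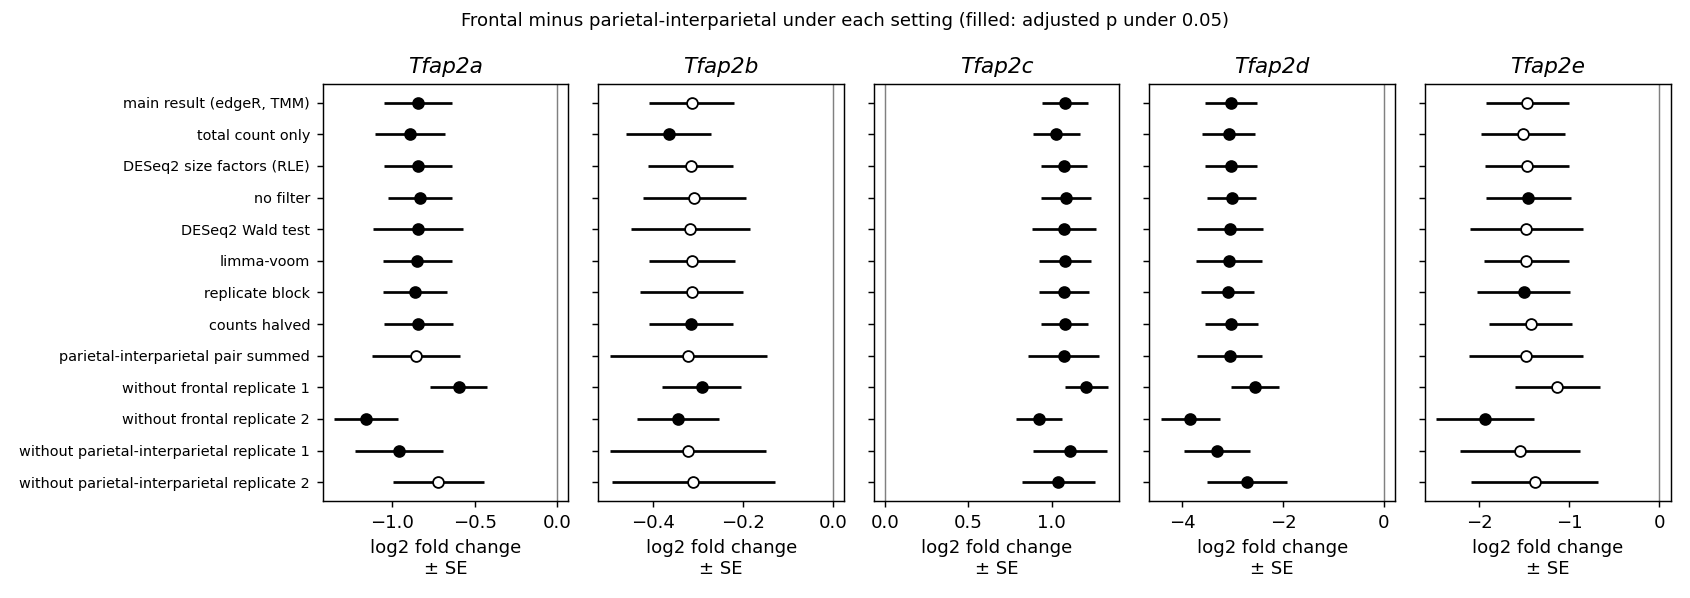
Log2 fold change, frontal minus parietal-interparietal (horizontal axis, own scale per gene, bars ± SE), of each AP-2 gene under the main result and each alternative (rows). Filled points have an adjusted p under 0.05. Every point of Tfap2c lies above 0 and every point of the other 4 genes below 0, and the points of Tfap2c and Tfap2d are filled throughout.

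Levels of different members were compared per kilobase of merged annotated exons, since their exon lengths run between 1954 bases for Tfap2d and 6338 bases for Tfap2b. The summed level of the family per kilobase was 13.8 and 16.2 CPM per kb in frontal libraries, against 15.4 and 16.5 CPM per kb in parietal-interparietal libraries, and the ranges overlapped. The make-up of that sum did not overlap. Tfap2c made up 46.3% and 47.7% of it in frontal libraries, against 22.3% and 19.9% in parietal-interparietal libraries. Tfap2b made up 42.7% and 37.5% in frontal libraries, against 48.2% and 45.5% in parietal-interparietal libraries. Tfap2a made up 8.30% and 10.3% in frontal libraries, against 15.1% and 16.7% in parietal-interparietal libraries. Tfap2d made up 0.771% and 1.61% in frontal libraries, against 8.03% and 11.3% in parietal-interparietal libraries. Tfap2e made up 1.93% and 2.85% in frontal libraries, against 6.25% and 6.54% in parietal-interparietal libraries.

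The order of the levels per kilobase was the same in both libraries of a region and differed between regions. It was Tfap2c, Tfap2b, Tfap2a, Tfap2e, Tfap2d in frontal libraries and Tfap2b, Tfap2c, Tfap2a, Tfap2d, Tfap2e in parietal-interparietal libraries, highest first. The log2 ratio of Tfap2b to Tfap2c per kilobase was −0.12 and −0.35 in frontal libraries, so these neighbours differed little, against 1.11 and 1.20 in parietal-interparietal libraries. The log2 ratio of Tfap2d to Tfap2e was −1.32 and −0.82 in frontal libraries, against 0.36 and 0.79 in parietal-interparietal libraries. Both pairs thus stood in opposite order in the regions, and both libraries of each region showed its order. The annotated exon length fixes the place of 0 in these ratios but not the difference between regions.

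**Figure D3:**
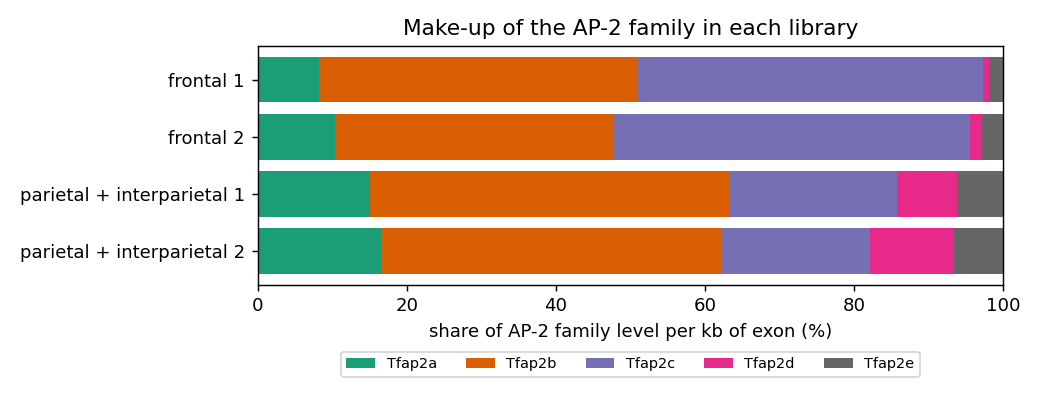
Share of the family's summed level per kb of exon (horizontal axis, percent) held by each AP-2 gene in each library (rows, frontal above parietal-interparietal). The Tfap2c segment fills 46.3% and 47.7% of the frontal bars and 22.3% and 19.9% of the parietal-interparietal bars.

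The 3 members used by neural crest and its ectodermal neighbours, Tfap2a, Tfap2b and Tfap2c, were summed per kilobase and set against the sum of Tfap2d and Tfap2e. The sum of the first 3 was 36.1 and 21.4 times that of Tfap2d and Tfap2e in frontal libraries, against 6.003 and 4.59 times in parietal-interparietal libraries. On the log2 scale the ratio was 5.17 and 4.42 in frontal libraries, against 2.59 and 2.20 in parietal-interparietal libraries, a difference of 2.40. The exact two-sided permutation test gave p = 0.33, the smallest p that 2 libraries against 2 can give. The lower part of the ratio rests on few frontal reads, 6 and 18 counts of Tfap2d and 16 and 34 of Tfap2e. Both were lower there, at −3.03 and −1.47 log2 units. A higher ratio therefore does not show a higher level of the first 3 members, of which Tfap2a and Tfap2b were lower in frontal libraries. The 3 members did not move as a block: within them Tfap2c was called higher and Tfap2a lower, and the log2 ratio of Tfap2a to Tfap2c per kilobase was −2.48 and −2.20 in frontal libraries, against −0.56 and −0.25 in parietal-interparietal libraries.

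Tfap2d and Tfap2b lie side by side on chromosome 1, both on the plus strand, with 42.6 kb between the end of Tfap2d and the start of Tfap2b. They were the only 2 tested genes among those starting within 500 kb of either. Their log2 ratio per kilobase, Tfap2b to Tfap2d, was 5.79 and 4.54 in frontal libraries, against 2.59 and 2.01 in parietal-interparietal libraries. Near Tfap2a, 9 genes starting within 500 kb were tested and 2 were called, Tmem14c and Elovl2, both higher in frontal libraries, the opposite direction to Tfap2a. Near Tfap2c, 1 of 15 tested genes was called, Fam210b, at 0.47 log2 units. Near Tfap2e, 3 of 22 were called, Adprhl2, the cilium gene Tekt2 and the Argonaute gene Ago1, all higher, while Tfap2e was lower without a call. These neighbour calls stand beside 12.7% of all tested genes called, and so few genes do not set a locus apart from that share.

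The genes with profiles most like each member over the 4 libraries were found by the smallest distance between centred log2 CPM values among 13849 other protein-coding genes of at least 1 CPM. With 4 libraries this describes likeness in these samples only. For Tfap2d the nearest were Tal2, a factor of midbrain GABAergic neurons, at a distance of 0.41 log2 units, then Otol1 (0.479), which encodes otolin, and Otogl (0.669), which encodes an otogelin-like protein. Tal2 averaged 2.19 CPM in frontal libraries, against 15.4 CPM in the others. Rarres1 and the helix-loop-helix factor Bhlhe23 followed. For Tfap2c the nearest was Ibsp, which encodes bone sialoprotein (0.0777), then Bach2, Lrrc4c, Kcng1 and Gabra2. For Tfap2a they were Rasgrp3 (0.0305), Arhgap6, Psd4, Cdcp1 and Gon7. For Tfap2b they were Gpam (0.00542), Lifr, Rnd3, Prkar2a and Fbln2. For Tfap2e the nearest was Notum (0.0716), a secreted Wnt inhibitor, and Foxq1, Nwd2 and Rnf128 were also near.

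Of 11 tested cofactors and regulators of AP-2 proteins 0 were called by edgeR, 0 by DESeq2 and 0 by limma-voom. Over all tested genes the shares called were 12.7%, 13.4% and 12.2% in that order. A list of 11 is too short to set 0 calls apart from those shares. At an unadjusted p under 0.05 in edgeR 2 were higher and 1 lower. The median was 0.12 log2 units beside 0.00598 over all tested genes. Kctd15, whose protein represses AP-2 activity, averaged 52.2 ± 1.26 CPM (frontal) and 44.7 ± 0.942 CPM (parietal-interparietal; adjusted p = 0.149). Cited2, a coactivator of AP-2 proteins, averaged 26.9 ± 3.30 CPM (frontal) and 29.7 ± 1.62 CPM (parietal-interparietal; adjusted p = 0.519). With 1 library left out the list's median lay between 0.0283 and 0.112 log2 units. Some of its genes were called without a frontal library, where calls also rose over all genes.

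Of 15 tested genes reported elsewhere as AP-2 targets, 6 were called lower in frontal libraries and 0 higher, with a median of −0.34 log2 units. Over all tested genes 6.44% were called lower and 6.25% higher. Igfbp5, an insulin-like growth factor binding protein, had 689 and 672 CPM in frontal libraries, against 1017 and 1019 CPM in parietal-interparietal libraries (log2 fold change −0.58 ± 0.07 SE, edgeR adjusted p = 0.000496). Mcam, a cell adhesion molecule of vessels and pigment cells, had 50.1 and 50.0 CPM in frontal libraries, against 82.0 and 82.8 CPM in parietal-interparietal libraries. Its log2 fold change was −0.72 ± 0.09 SE (adjusted p = 0.000694). Cdh1, the epithelial cadherin, Erbb3, a receptor of crest-derived glia, the cell cycle inhibitor Cdkn1a and the receptor Kit were also lower, between −0.56 and −0.34 log2 units. With 1 library left out the list's median lay between −0.408 and −0.299 log2 units, and it was −0.325 with the parietal-interparietal pair summed. As over all genes, more were called lower without a frontal library and fewer without a parietal-interparietal library or with that pair summed. Calls higher also appeared without a frontal library. DESeq2 and limma-voom also called 0 higher and 6 lower, and at an unadjusted p under 0.05 in edgeR 1 gene was higher and 8 lower. Endothelial, glial and epithelial cells also use these genes, and the part of cell make-up was not tested.

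The classical AP-2 site, GCCNNNGGC, reads the same on both strands. It was searched in the 250 bases before each start site in the RefSeq promoter table (GRCm38.p6), where 13.7% of 32851 promoters hold it. None of the 7 listed promoters of Tfap2a, Tfap2b, Tfap2d and Tfap2e holds these letters. No promoter is listed for Tfap2c, which was therefore not searched. A Tfap2a stretch, chr13:40733796-40734045, has 180 of its 250 bases in annotated untranslated exon. Of the 11 reported target genes with a listed promoter, 5 (45.5%) hold the site, against 15.4% of 27025 genes. Counted by promoter, 6 of 17 (35.3%) hold the site, against 13.7% of all promoters. The cofactor list held it in 37.5% of its genes, and the 10 other lists ranged between 0% (pigment cells, 5 genes) and 33.3% (meninges, 12 genes). The median GC content of the target promoters was 59.2%, against 52.4% over all promoters, and the site is rich in G and C. The matches in the promoters of 3 targets called lower are shown with their flanks, since they are the listed targets that join a called difference to a match. Capitals mark the match.
Igfbp5: ctggctggcaGCCAGGGGCcgtctattta
Mcam: cagccagcgcGCCGGGGGCccgcccccta
Kit: cagcccgagaGCCCCGGGCactaggcagc

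These lie at chr1:72874911-72874939 on the minus strand for Igfbp5, at chr9:44134527-44134555 on the plus strand for Mcam and at chr5:75574843-75574871 on the plus strand for Kit. The matches start 64, 121 and 134 bases upstream of the annotated start sites in that order. A match describes letters only and says nothing about binding in these tissues.

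Transcription factors of the neural crest went both ways, as the AP-2 members did. Of 18 tested factors 4 were called higher and 5 lower (median −0.13 log2 units), beside 6.25% higher and 6.44% lower over all tested genes. Nr2f1, of the nuclear receptor family, averaged 113 ± 5.07 CPM (frontal) and 67.3 ± 0.886 CPM (parietal-interparietal; 0.74 ± 0.09, edgeR adjusted p = 0.000547), and Msx1, of the homeobox family, averaged 35.4 ± 2.64 CPM (frontal) and 21.4 ± 0.845 CPM (parietal-interparietal; 0.73 ± 0.11, adjusted p = 0.00272). Snai1, a zinc finger factor of crest delamination, averaged 29.0 ± 2.58 CPM (frontal) and 55.5 ± 0.572 CPM (parietal-interparietal; −0.94 ± 0.10, edgeR adjusted p = 0.000422), and Pax3, a paired box factor of crest and dorsal neural tube, was also at −0.94. The list's median lay between −0.263 and 0.0425 log2 units with 1 library left out, and was −0.131 with the parietal-interparietal pair summed. As over all genes, more were called without a frontal library and fewer without a parietal-interparietal library or with that pair summed.

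Markers of other tissues were present in the libraries and moved with some members. Of 16 dorsal midbrain genes 10 were lower and 0 higher, with a median of −1.35 log2 units, the direction of Tfap2d. Over all tested genes 6.44% were called lower and 6.25% higher. The summed level of the midbrain genes was 52.9 and 63.0 CPM in frontal libraries, against 159 and 165 CPM in parietal-interparietal libraries, and none was at 0 in all libraries. En2, an engrailed factor of the midbrain-hindbrain boundary, had 0.591 and 1.08 CPM in frontal libraries, against 14.1 and 14.9 CPM in parietal-interparietal libraries. Pou4f3, a POU factor reported downstream of Tfap2d, averaged 1.10 ± 0.284 CPM (frontal) and 2.06 ± 0.152 CPM (parietal-interparietal; adjusted p = 0.206). The midbrain median lay between −1.65 and −1.24 log2 units with 1 library left out, and was −1.35 with the parietal-interparietal pair summed. As over all genes, more were called lower without a frontal library and fewer without a parietal-interparietal library or with that pair summed. The part of midbrain tissue in the Tfap2d difference was not tested.

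Surface ectoderm, the other main tissue of Tfap2a and Tfap2c at this stage, was abundant in both regions. Of 15 markers 2 were higher and 3 lower in frontal libraries, beside 6.25% higher and 6.44% lower over all tested genes. The summed level of the markers was 1061 and 999 CPM in frontal libraries, against 1132 and 1117 CPM in parietal-interparietal libraries. Krt5, a keratin of basal epidermis, averaged 365 ± 19.1 CPM (frontal) and 421 ± 0.427 CPM (parietal-interparietal; adjusted p = 0.095). The 2 higher genes were the simple-epithelium keratins Krt18 (2.17-fold) and Krt8 (1.93-fold), and the lower genes were Cdh1, Krt10 and Grhl3. The median of the markers lay between −0.255 and −0.197 log2 units with 1 library left out, and was −0.215 with the parietal-interparietal pair summed. As over all genes, more were called lower without a frontal library and fewer without a parietal-interparietal library or with that pair summed. The part of ectoderm in the differences of Tfap2a and Tfap2c was not tested.

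Forebrain genes moved with Tfap2c. Of 12 tested, 12 were called higher in frontal libraries, beside 6.25% higher and 6.44% lower over all tested genes. The summed level of the forebrain genes was 567 and 588 CPM in frontal libraries, against 114 and 111 CPM in parietal-interparietal libraries. Eomes, which marks intermediate progenitors of the cortex, had 53.3 and 53.6 CPM in frontal libraries, against 0.245 and 0.0737 CPM in parietal-interparietal libraries. The fold of Tfap2c was smaller than the list's median of 4.17 log2 units, and the part of forebrain tissue in the Tfap2c difference was not tested. Olfactory and vomeronasal genes, the home tissue of Tfap2e, had 2 of 10 tested called higher and 1 lower in frontal libraries, while Tfap2e was at −1.47 log2 units. The list's median was 0.48 log2 units. Frontal libraries lay wholly above the others for 7 of the 10 and wholly below for 2, beside 28.9% and 28.4% of all tested genes. Omp, the olfactory marker protein gene, was called higher, at 1.49 ± 0.737 CPM (frontal) and 0.211 ± 0.0667 CPM (parietal-interparietal; 2.80, edgeR adjusted p = 0.023). The gene called lower was Gnal, the G protein alpha subunit of odour signalling, at 7.54 ± 0.185 CPM (frontal) and 11.4 ± 0.539 CPM (parietal-interparietal; −0.59, edgeR adjusted p = 0.0396). Their summed level was 63.3 and 62.2 CPM in frontal libraries, against 60.8 and 50.6 CPM in parietal-interparietal libraries, and 1 listed gene was at 0 in all libraries. The olfactory median lay between 0.349 and 0.628 log2 units with 1 library left out, and was 0.473 with the parietal-interparietal pair summed. As over all genes, more were called higher without a frontal library and fewer without a parietal-interparietal library or with that pair summed.

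The list counts that follow stand beside 6.44% of all tested genes called lower and 6.25% called higher. Of 11 sensory ganglion genes 10 were lower and 0 higher, with a summed level of 107 and 104 CPM in frontal libraries, against 244 and 246 CPM in parietal-interparietal libraries. Of 16 meningeal genes 8 were lower and 0 higher (summed level 926 and 1015 CPM frontal, against 1292 and 1308 CPM parietal-interparietal). Of 10 skeletal muscle genes 9 were lower and 0 higher (897 and 844 CPM frontal, against 1265 and 1267 CPM parietal-interparietal). With all libraries and the filter on low counts, no gene of the midbrain, ganglion, meningeal and muscle lists was higher at an unadjusted p under 0.05 in edgeR, DESeq2 or limma-voom. Without the filter 1 meningeal gene was higher at that p, and a meningeal gene was also called higher without frontal library 1. With 1 library left out the median lay between −0.619 and −0.541 log2 units for meninges and between −0.608 and −0.551 for muscle. As over all genes, fewer genes of both lists were called lower without a parietal-interparietal library or with that pair summed. Of 8 pigment cell genes 0 were called by edgeR, DESeq2 or limma-voom, with 0 at an unadjusted p under 0.05, beside 12.7% of all tested genes called by edgeR. Their median lay between −0.135 and −0.0227 log2 units with 1 library left out. A pigment gene was called without either frontal library, where calls also rose over all genes. The osteoblast list, which checks the labelled tissue, had 2 of 11 tested genes higher and 2 lower. The osteoblast median was 0.41 log2 units, and lay between 0.248 and 0.447 with 1 library left out. As over all genes, more were called higher without a frontal library and fewer without a parietal-interparietal library or with that pair summed. In this list 1 gene, Phospho1, was at 0 in all libraries. Whether these tissues had a part in the differences of Tfap2a, Tfap2b and Tfap2e was not tested.

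**Figure D4:**
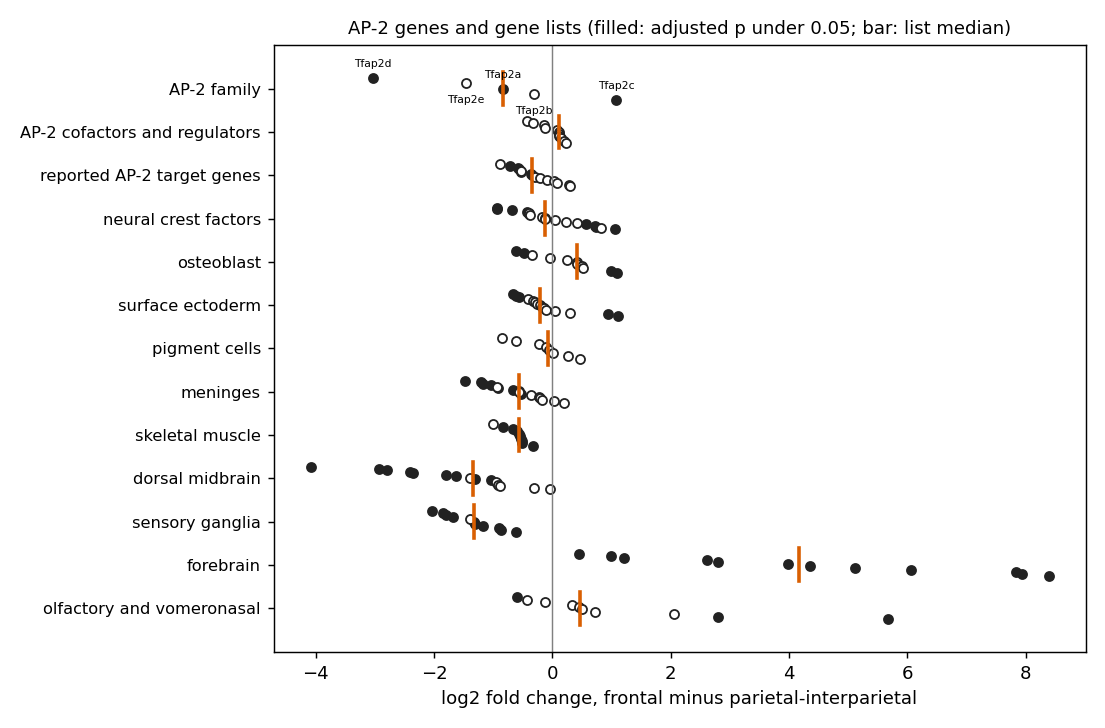
Log2 fold change, frontal minus parietal-interparietal (horizontal axis), of the 5 AP-2 genes and of the genes of each list (rows, 1 point per tested gene, filled where the adjusted p was under 0.05, orange bar at the median). The AP-2 genes spread between −3.03 and 1.08, while the AP-2 cofactors lie between −0.43 and 0.22 and none is filled.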

How the data were processed

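Poly(A) RNA counts of 4 libraries were used, 1 whole-number count per Ensembl gene as deposited, not normalized by the authors. The submitters' processing notes name featureCounts 2.0.1, HISAT2 2.1.0, Trim Galore 0.6.7 and the build GRCm38. For settings, strand and annotation release the entry is: not given in the sources used here. Totals were 29598388 and 35555013 counts in frontal and 24069177 and 26645504 in parietal-interparietal libraries. Of counts between 1 and 20, 68.3% to 74.4% were even, so counts were also analysed halved.

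GENCODE M21 (GRCm38) supplied symbols for 55227 of 55487 IDs, exon lengths and coordinates (1-based). CPM here is edgeR's unit, on TMM-scaled library sizes. Genes were filtered with filterByExpr (minimum count 10) and tested two-sided with edgeR 4.0.16 (quasi-likelihood, group as only term, 2 residual degrees of freedom, R 4.3.3), adjusted by Benjamini-Hochberg over 20947 genes. SE is the absolute log2 fold change over the square root of F. Alternatives used DESeq2 1.42.0 and limma 3.58.1. Coding sequences were aligned with mafft 7.526. The procedure was tested on simulated data. Members and the 12 lists (159 entries) were chosen with earlier results of these data known. Named genes were the 5 members, up to 4 per list with the smallest p, the 5 nearest profiles per member and called neighbours within 500 kb. Outside this rule, chosen after their values were seen, are Cited2, Krt5, Grhl3, Pou4f3, Kit, Cdkn1a, Phospho1 and the antisense genes. Values of some genes that the rule takes are not reported here.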

Additional observations from a re-analysis of the deposited data

How the results depend on the processing

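Tfap2c and Tfap2d kept their call and direction under each of the 12 alternatives, and no member changed sign under any of them. The call of Tfap2a was lost where the parietal-interparietal pair was summed (−0.85), and its log2 fold change lay between −1.16 and −0.60 with 1 library left out. Among fits that kept all 4 libraries, Tfap2b gained a call with total count scaling (−0.37) and with halved counts (−0.32). Its log2 fold change lay between −0.34 and −0.29 with 1 library left out. Among the same fits Tfap2e gained a call with no filter (−1.46) and with the replicate number as a block (−1.51). Its log2 fold change lay between −1.94 and −1.14 with 1 library left out. Members called lower numbered 1 with the pair summed and between 1 and 4 with 1 library left out (4 without frontal library 2), against 2. Over all genes 2657 were called, 791 with the pair summed and between 865 and 7279 with 1 library left out (7279 without frontal library 2 and 5373 without frontal library 1). Such a fit takes its spread from the pair left whole and assumes that the lone library varies like the others. The numbers gave no sign of pairing the libraries (r = 0.0206 between deviations of same-numbered libraries), and the replicate block gave 3306 calls. The ratio of Tfap2a, Tfap2b and Tfap2c to Tfap2d and Tfap2e was 2.32 log2 units higher in frontal libraries with geometric means and 2.24 without length correction, and between 2.03 and 2.78 with 1 library left out. Total count scaling moved the median of all genes by −0.05. Depth limits Tfap2d and Tfap2e, with 6 and 18 and with 16 and 34 frontal counts.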
